A study of Mus musculus with 4 samples.

Results

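The 10 core clock genes were followed in cultured mouse aortic vascular smooth muscle cells given prostaglandin E2 (PGE2). They were taken by gene symbol, 10 of the 27278 symbols on the array (Arntl, also called Bmal1, Clock, Npas2, Per1, Per2, Per3, Cry1, Cry2, Nr1d1 and Nr1d2) and read by 24 of the 56605 probes of an Agilent single-colour array. There were 2 PGE2 cultures and 2 control cultures, both at 24 h, the control cultures without any treatment, and each culture had its own array. All 4 came from explants of adult C57BL/6J aorta and carried the genotype EP4-Tg. EP4 is a PGE2 receptor that raises cyclic AMP, and the labels give neither the promoter nor the species of the transgene. They name a medium but neither the dose of PGE2 nor the clock time of harvest, so each gene was seen at 1 time and its phase cannot be told from its level.

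The circadian clock is a transcription loop that runs in nearly every cell type, aortic smooth muscle included. The proteins of Arntl and Clock, or of Arntl and Npas2, pair and bind E-box elements to switch on the Per, Cry and Nr1d genes. PER and CRY proteins then return to the nucleus and hold that pair back, while the Nr1d proteins (REV-ERB alpha and beta) repress Arntl through ROR elements. In many cells cyclic AMP, through CREB and its element the CRE, can switch on Per1 directly, which is one way in which hormones reset the clock.

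Promoter sequence bears on these genes because they answer to shared elements. RefSeq (GRCm38.p6) gave 13 windows, each of 250 bases before to 50 after a transcription start, for 9 of the 10 genes. Per2 had no window. Both strands were searched for the E-box (CACGTG), a variant called the E-prime box (CACGTT), the full CRE (TGACGTCA), a shorter CRE core (TGACG, which the full CRE contains), the D-box (TTATGTAA or TTACGTAA) and the ROR element by its name. The windows of 4 genes are shown up to the start, with matches in capitals, because Per1 and Nr1d1 had the highest fitted changes, Cry1 the lowest, and Per3 the only D-boxes. Per1 is shown at both of its starts, at chr11:69098699-69098948 (plus strand) and chr11:69099902-69100151 (plus strand). Per3 is at chr4:151044666-151044915 (minus strand), Cry1 at chr10:85185055-85185304 (minus strand) and Nr1d1 at chr11:98775378-98775627 (minus strand). For Arntl a 30-base stretch at chr7:113207528-113207557 (plus strand) is shown around its ROR element, which lies 27 to 37 bases after the second start.
Per1, first start: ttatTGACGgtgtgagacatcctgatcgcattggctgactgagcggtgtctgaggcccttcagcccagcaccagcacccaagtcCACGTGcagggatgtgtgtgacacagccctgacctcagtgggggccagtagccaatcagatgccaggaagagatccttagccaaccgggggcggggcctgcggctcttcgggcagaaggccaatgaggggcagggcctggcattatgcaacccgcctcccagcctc
Per1, second start: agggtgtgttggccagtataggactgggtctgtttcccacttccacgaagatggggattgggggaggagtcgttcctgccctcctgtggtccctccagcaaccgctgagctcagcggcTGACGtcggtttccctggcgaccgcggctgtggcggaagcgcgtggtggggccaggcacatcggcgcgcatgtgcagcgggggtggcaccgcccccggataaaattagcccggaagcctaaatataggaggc
Per3: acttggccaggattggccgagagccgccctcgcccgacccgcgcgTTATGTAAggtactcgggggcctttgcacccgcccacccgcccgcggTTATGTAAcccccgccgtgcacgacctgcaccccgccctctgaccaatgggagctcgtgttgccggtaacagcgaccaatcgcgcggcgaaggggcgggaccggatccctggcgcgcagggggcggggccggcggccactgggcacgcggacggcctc
Cry1: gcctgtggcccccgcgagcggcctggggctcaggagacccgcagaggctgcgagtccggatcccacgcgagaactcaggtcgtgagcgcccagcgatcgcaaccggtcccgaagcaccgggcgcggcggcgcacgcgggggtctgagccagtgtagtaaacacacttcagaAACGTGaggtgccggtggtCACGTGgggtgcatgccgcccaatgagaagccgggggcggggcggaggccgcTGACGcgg
Nr1d1: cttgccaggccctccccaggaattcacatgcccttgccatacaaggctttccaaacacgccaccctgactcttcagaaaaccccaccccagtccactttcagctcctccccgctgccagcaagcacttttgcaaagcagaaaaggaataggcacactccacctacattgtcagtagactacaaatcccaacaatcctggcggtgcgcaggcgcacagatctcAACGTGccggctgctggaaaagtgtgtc
Arntl: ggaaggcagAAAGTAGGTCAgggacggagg

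The first Per1 window held an E-box and a CRE core, and the second a CRE core. Cry1 held an E-box, an E-prime box and a CRE core, Nr1d1 an E-prime box, and Per3 held 2 D-boxes. Cry2, not printed, held an E-prime box and a CRE core. No window held a full CRE, against 1.79% of the 32851 RefSeq windows. E-boxes were in 2 of the 13 windows, against 7.15% of all windows, E-prime boxes in 3 (4.68%), CRE cores in 4 (20.8%), D-boxes in 1 (1.06%) and the ROR element in 1 (0.384%). The windows of a gene overlap or share its locus, and a match is only a run of letters. Sequence outside these windows was not searched, so a full CRE or another element farther from a start would be missed.

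**Figure D1:**
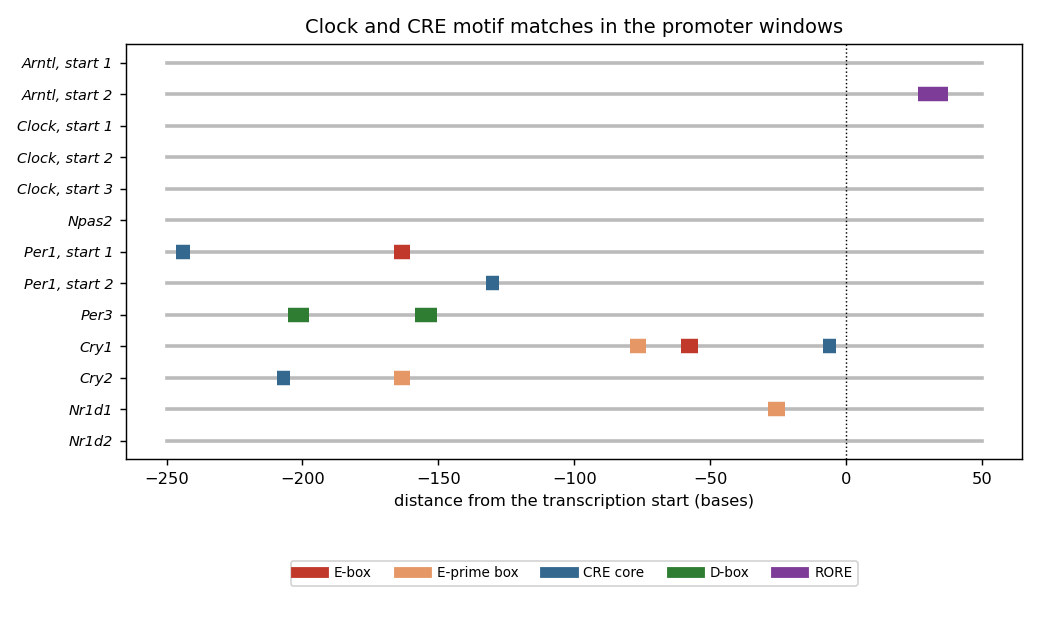
Matches to clock and CRE motifs in the 13 RefSeq promoter windows of 9 core clock genes, by distance in bases from the transcription start, with 1 line per window and coloured blocks for matches. The Per1 windows carry an E-box and CRE cores, the Per3 window 2 D-boxes and the second Arntl window a ROR element after the start.

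Intensities were taken as log2 relative to the array's 75th percentile, so that 0 is the intensity at that percentile and levels of different probes cannot be compared. The scanner's own flag put between 47.9% and 53.8% of an array's spots well above background. Of the 24 clock probes, 15 were well above background on all 4 arrays and 5 on none, and none was saturated. A probe was tested if both arrays of at least 1 group were well above background, which held for 19, and a gene was represented by its brightest tested probe. This left 9 of the 10 genes, without Npas2. Cry1 passed only through its control arrays, so the filter itself favours a lower value for it.

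With PGE2, Per1 stood highest against control among the clock genes, at 2.86-fold, followed by Nr1d1 at 1.99-fold and Per2, Per3 and Nr1d2 at 1.56-fold to 1.59-fold. Arntl, Clock and Cry1 had values below control and Cry2 was nearly equal. No clock gene passed the test over all 17553 tested genes or unnamed probes (0 of 9 at an adjusted p under 0.05 by limma with Benjamini-Hochberg adjustment, against 0.672% of all tested, 0.399% as higher and 0.273% as lower). At an unadjusted p under 0.05 there were 4 higher (7.33% of all tested) and 1 lower (10.3%). The 1 lower was Cry1, which was tested only through the group where it is high. Both PGE2 arrays lay above both control arrays in 5 of the 9 genes (24.1% of all tested) and below them in 2 (27.9%), Clock and Cry1. The median log2 change (PGE2 minus control) was 0.64 over the 9 genes, against -0.025 over all tested. It was 0.66 over the 8 well above background on every array, against -0.028 over the 15903 such genes or unnamed probes. The median of the 9 was 0.36 without control replicate 1 and 0.33 with a gene's probes averaged, so its size depends on 1 control array and on the choice of probe.

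**Figure D2:**
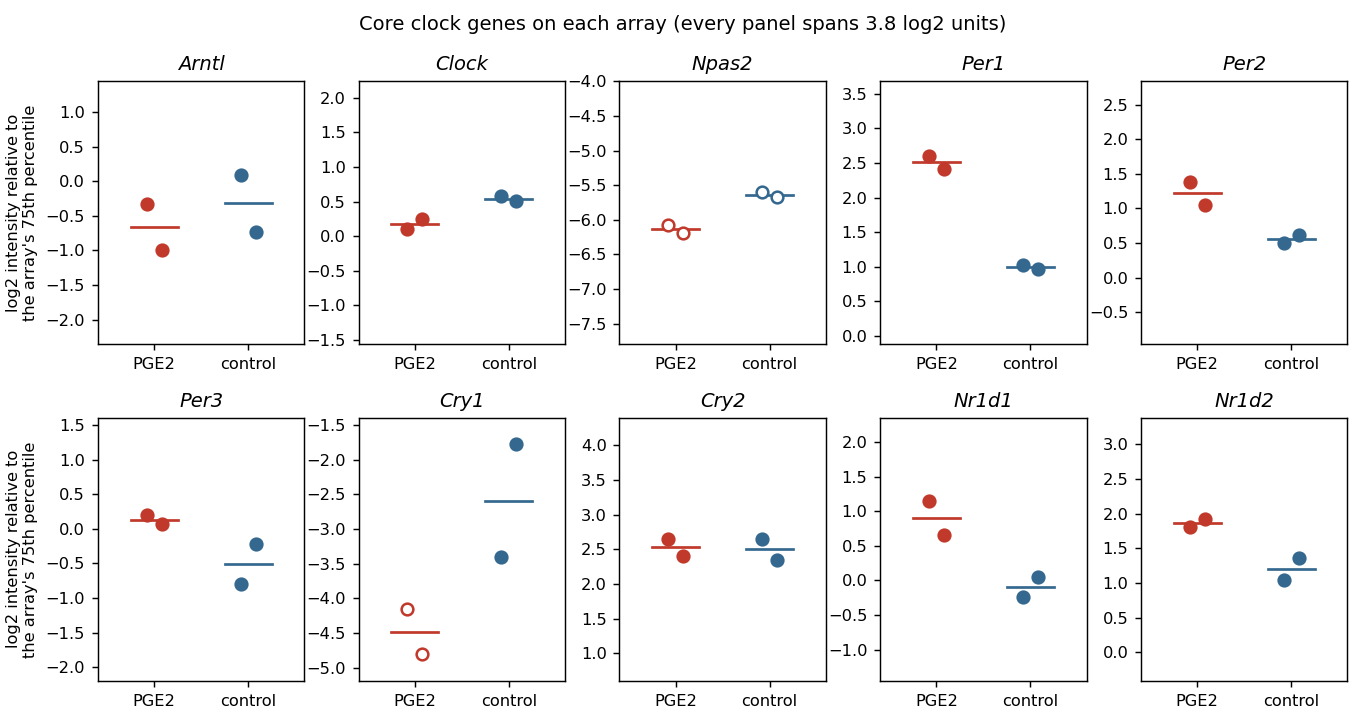
Log2 intensity of each core clock gene relative to the array's 75th percentile, on the 2 PGE2 arrays (red, left) and the 2 control arrays (blue, right), with lines at the means and open points where the probe was not well above background on both arrays of the group. Per1, Per2, Per3, Nr1d1 and Nr1d2 have both PGE2 arrays above both control arrays, Clock and the dim Cry1 and Npas2 below them, and Arntl and Cry2 overlap.

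The Per genes encode the PERIOD proteins, which carry the negative arm of the loop. Per1 stood at 2.60 and 2.42 on the PGE2 arrays, against 1.02 and 0.96 on the control arrays (log2 levels). Its processed intensity was 3653 and 3326 on the PGE2 arrays, against 1033 and 1166 on the control arrays. The gap between the groups was larger than the gap within either, and the means were 2.51 ± 0.13 with PGE2 and 0.99 ± 0.04 in control (SD, n = 2 each). The log2 change of Per1 was 1.52 ± 0.16 (SE, adjusted p = 0.0620, limma), with a 95% interval of 2.10-fold to 3.90-fold. This placed Per1 at percentile 97.3 of all changes, where 95% of tested genes lay below 0.97. It ranged from 1.42 to 1.61 as each array was left out. Per1 passed the threshold in 1 of 13 alternatives, with a trended and robust prior (adjusted p = 0.0415), over a range of 0.0415 to 0.332. The second Per1 probe, designed to a cDNA clone (AK081813), was well above background on no array.

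Per2 encodes the period protein with a central part in the loop's feedback. It stood at 1.39 and 1.06 on the PGE2 arrays, against 0.50 and 0.61 on the control arrays. Both PGE2 values were above both control values, and the log2 change was 0.67 ± 0.19 (adjusted p = 0.218, limma), with a 95% interval of 1.1-fold to 2.28-fold. A second Per2 probe was well above background on no array. Per3, a period gene that is less needed for rhythm in mice, stood at 0.21 and 0.063 on the PGE2 arrays, against -0.80 and -0.22 on the control arrays. The groups did not overlap on this probe, but control array 1 stood well below control array 2, and the log2 change was 0.64 ± 0.25 (adjusted p = 0.307, limma). It was 0.36 when control replicate 1 was left out and 0.93 when control replicate 2 was. The other Per3 probes gave 0.37 ± 0.45 and -0.025 ± 0.40, both with overlapping groups, so the Per3 probes did not move alike.

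Nr1d1 and Nr1d2 encode REV-ERB alpha and beta, haem-binding nuclear receptors that repress Arntl. Nr1d1 stood at 1.14 and 0.66 on the PGE2 arrays, against -0.24 and 0.055 on the control arrays. Both PGE2 values were above both control values, with a wider gap within PGE2 than within control. The log2 change of Nr1d1 was 1.00 ± 0.25 (adjusted p = 0.178, limma), or 0.75 when PGE2 replicate 1 was left out and 1.24 when PGE2 replicate 2 was. Nr1d2 stood at 1.81 and 1.93 on the PGE2 arrays, against 1.04 and 1.36 on the control arrays. Its groups did not overlap on any of its 3 probes, which gave log2 changes of 0.67 ± 0.19, 0.62 ± 0.18 and 0.72 ± 0.18. The brightest had an adjusted p = 0.213 (limma). These probes read 1 transcript on the same arrays and are not replicates.

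Arntl and Clock encode the activating pair. Arntl stood at -0.33 and -1.0 on the PGE2 arrays, against 0.092 and -0.74 on the control arrays. The groups overlapped, with array 1 above array 2 in both, and the log2 change was -0.34 ± 0.40 (adjusted p = 0.695, limma). Its interval, 0.369-fold to 1.69-fold, holds both a fall and a rise, and the value turned to 0.073 without control replicate 1. The dimmer Arntl probes gave -0.093 ± 0.32 and -0.44 ± 0.30, each well above background on 1 of 2 control arrays.

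Clock stood at 0.10 and 0.25 on the PGE2 arrays, against 0.58 and 0.51 on the control arrays. Both PGE2 values were below both control values, by a log2 change of -0.36 ± 0.16 (adjusted p = 0.342, limma). A second Clock probe gave -0.20 ± 0.24 with overlapping groups. Another, to a cDNA clone (AK030352), gave 0.12 ± 0.44 and was well above background on 1 of 2 control arrays, and the dimmest was well above background on none. Npas2, the alternative partner of Arntl, had 1 probe, which was well above background on no array, so no difference was detectable for it.

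The cryptochrome genes encode the partners of the PER proteins in repression. Cry1 had a probe well above background on both control arrays and on neither PGE2 array, at -4.15 and -4.81 on the PGE2 arrays, against -3.40 and -1.78 on the control arrays. The control arrays stood far apart, with processed intensities of 33.8 and 22.3 on the PGE2 arrays, against 48.1 and 174.7 on the control arrays. The fitted log2 change of Cry1 was -1.89 ± 0.63 (adjusted p = 0.254, limma), with a 95% interval of 1.13-fold to 12.2-fold lower. The dim side was then set on each array at the dimmest signal well above background, or at the probe itself if higher. This floored fold was 3.39-fold lower with PGE2. It is no firm minimum, since it rests on the mean of control arrays that stood far apart. Leaving out control replicate 2 gave a fitted change of -1.08 and a floored fold of 1.93. Leaving out control replicate 1 gave -2.71 and 5.96-fold, so 1 control array moves its size. So does the background correction: with normexp and quantile normalization the fitted change was -0.68, a smaller size than each of these floored folds. A second Cry1 probe was well above background on no array. Cry2 was bright and stood at 2.65 and 2.40 on the PGE2 arrays, against 2.65 and 2.35 on the control arrays. Its log2 change was 0.030 ± 0.20 (adjusted p = 0.953, limma), with a 95% interval of 0.695-fold to 1.5-fold, and its other probes gave -0.032 ± 0.17 and -0.090 ± 0.21.

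**Figure D3:**
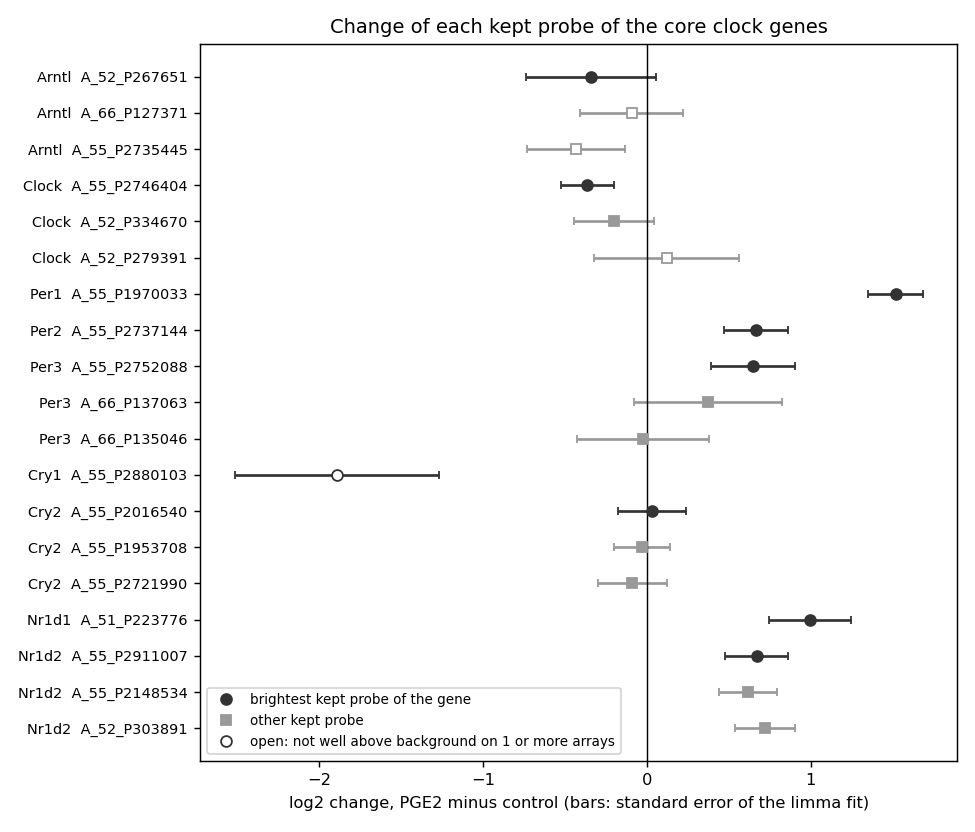
Log2 change (PGE2 minus control) of each of the 19 tested probes of the core clock genes, with bars for the standard error of the limma fit over all tested probes. The 3 Nr1d2 probes lie close together at 0.62 to 0.72 and the 3 Cry2 probes near 0, while the Per3 probes range between 0.64 and -0.025.

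**Figure D4:**
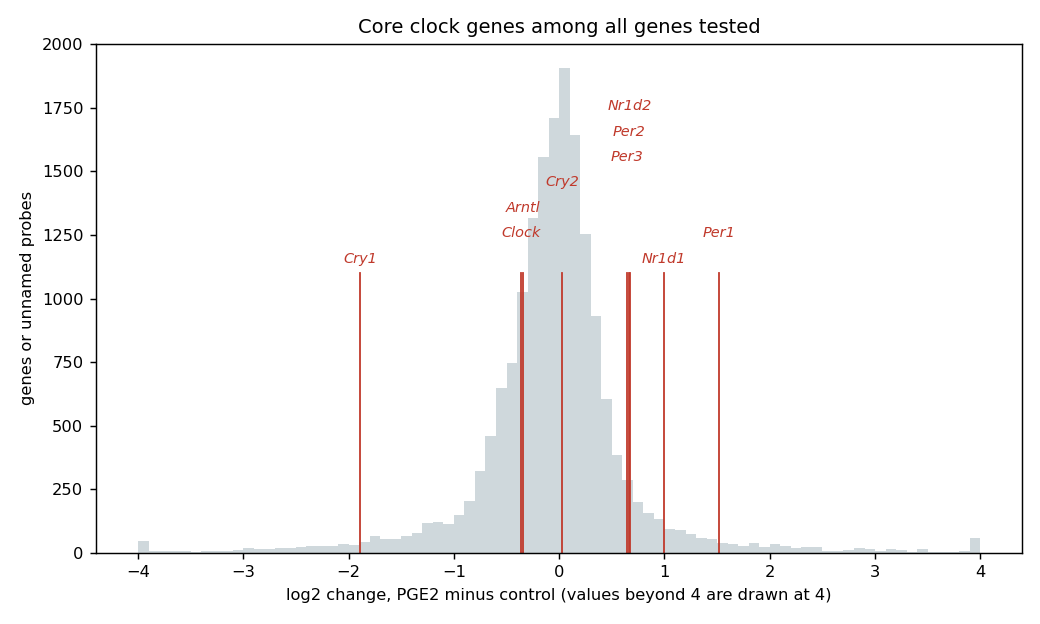
Histogram of the log2 changes (PGE2 minus control) of all 17553 tested genes or unnamed probes, with red lines at the 9 tested core clock genes. Per1 lies at 1.52, beyond the value of 0.97 under which 95% of tested genes lie, and Cry2 lies close to 0.

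Other genes of the clock pathway were described from 5 lists. Of the factors that carry the clock's output (PAR-bZIP genes, Nfil3 and the DEC genes), 5 of 6 were tested, 0 passed, and 4 were higher and 0 lower at an unadjusted p under 0.05 (7.33% and 10.3% of all tested). One of the 4 was Bhlhe41, named after its values were seen, which was well above background on both PGE2 arrays and neither control array and so was tested only through the group where it is high. The median log2 change of the 5 was 1.09. Nfil3, a repressor that competes with the PAR-bZIP activators at D-boxes, stood at 3.24 and 3.07 on the PGE2 arrays, against 1.31 and 0.59 on the control arrays. The groups lay far apart, and its log2 change was 2.21 ± 0.30 (adjusted p = 0.0816, limma), with 2.18 on its second probe. Dbp, a PAR-bZIP activator switched on by Arntl and Clock, stood at 5.98 and 5.54 on the PGE2 arrays, against 4.49 and 4.84 on the control arrays (log2 change 1.09 ± 0.25, adjusted p = 0.160, limma). Bhlhe40, which encodes the E-box repressor DEC1, had a log2 change of 1.38 ± 0.33 (adjusted p = 0.167, limma). These 3 were named for the smallest p of the list, and both PGE2 arrays were above both control arrays in each, which that choice largely fixes. Over the list 4 of 5 had both PGE2 arrays above both control arrays (24.1% of all tested), Bhlhe41 among them, and Tef, another PAR-bZIP gene, overlapped.

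Of the loop's partners (the ROR genes, Arntl2, Ciart, Timeless, Nono and Tipin), 7 of 8 were tested, 0 passed, and 1 was higher and 0 lower at an unadjusted p under 0.05 (7.33% and 10.3% of all tested), with a median log2 change of 0.23. The 1 was Ciart, an inhibitor of the Arntl and Clock pair, which was tested only through the group where it is high. It was well above background on both PGE2 arrays and neither control array, at -3.69 and -4.30 with PGE2, against -4.78 and -4.71 in control. These values lie so near the background that no fold is given, and its unadjusted p was 0.148 with a trended and robust prior and 0.213 with normexp background correction (limma). Rorb, a ROR nuclear receptor gene, had a log2 change of 1.66 ± 0.62 (adjusted p = 0.290, limma). It was well above background on 1 of 2 control arrays and so was also tested only through the group where it is high. Its change was 0.81 without control replicate 1 and 2.51 without control replicate 2. Arntl2, the paralogue of Arntl, stood at 0.41 ± 0.18 (adjusted p = 0.331, limma).

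Of 16 kinases, phosphatases and ubiquitin enzymes that act on clock proteins, 0 passed, and 3 were higher and 0 lower at an unadjusted p under 0.05 (7.33% and 10.3% of all tested), with a median log2 change of 0.16. Csnk1e and Csnk1d encode the casein kinases that phosphorylate PER proteins. Csnk1e stood at 2.28 and 2.03 on the PGE2 arrays, against 1.18 and 1.31 on the control arrays (log2 change 0.91 ± 0.18, adjusted p = 0.132, limma), and its other probes gave 0.87 and 1.54. Csnk1d had a log2 change of 0.47 ± 0.15 (adjusted p = 0.247, limma), and its other tested probes gave 0.66 and 0.88. Prkaa1, a catalytic subunit gene of AMP kinase, which phosphorylates CRY1, had 0.47 ± 0.17 (adjusted p = 0.281, limma), with a second probe at -0.024.

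Of 10 chromatin and cofactor genes, 9 were tested, 0 passed, and 1 was higher and 0 lower at an unadjusted p under 0.05 (7.33% and 10.3% of all tested), with a median of 0.30. Ezh2, a histone methyltransferase gene, stood at 0.63 ± 0.20 (adjusted p = 0.238, limma). Hdac3, the deacetylase gene of the REV-ERB corepressor, and Kat2b, an acetyltransferase gene, each stood at 0.30 ± 0.15 (adjusted p = 0.393 and 0.397, limma). Of 14 genes of cyclic AMP and glucocorticoid input, 1 passed as higher and 0 as lower, 3 were higher and 1 lower at an unadjusted p under 0.05 (7.33% and 10.3% of all tested), and the median was 0.18. At that unadjusted threshold Crem (log2 change 2.49) and Tsc22d3 (0.84) were higher and Nr3c1 (-0.93) was lower. These were named after their values were seen, and none of them passed. The one that passed was Sgk1, a kinase gene that glucocorticoids induce. Sgk1 stood at 5.23 and 5.16 on the PGE2 arrays, against 1.20 and 1.55 on the control arrays (log2 change 3.82 ± 0.19, adjusted p = 0.0442, limma). Its call was lost without control replicate 1, without control replicate 2 and without PGE2 replicate 2 (adjusted p = 0.146, 0.108 and 0.0509, limma).

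**Figure D5:**
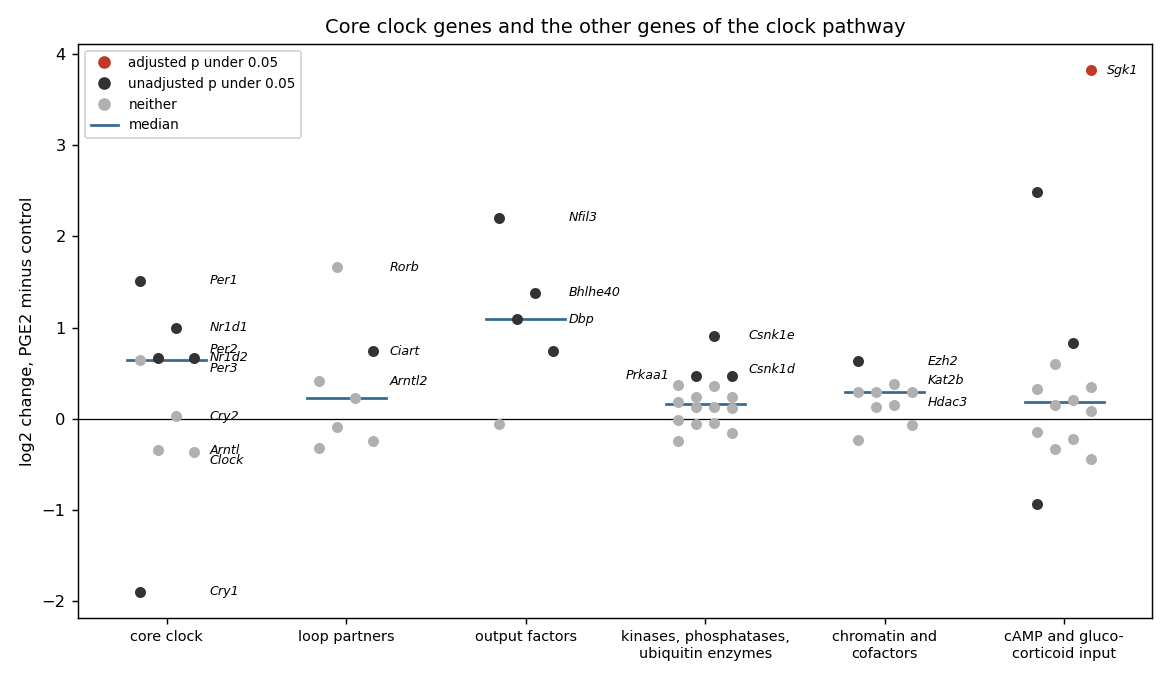
Log2 change (PGE2 minus control) of each tested gene in the core clock and in 5 other lists of the clock pathway, with blue lines at list medians, red for an adjusted p under 0.05, black for an unadjusted p under 0.05 and grey for neither. Sgk1 is the only red point, and Nfil3, Bhlhe40 and Dbp lie at 1.09 or more.

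The labelled cell type was checked by marker genes, given as intensities summed over a list and divided by the array's 75th percentile. Smooth muscle markers summed to 129.2 and 172.9 with PGE2 and to 714.0 and 407.1 in control. Of these, 7 of 8 were well above background on some array and Myocd on none. Only 4 of the 8 were tested, without Myh11, Lmod1, Des and Myocd. The bright Acta2 and Tagln carried most of the smooth muscle sum (log2 changes of -2.10 and -1.79). Cnn1 (-2.26) and Smtn (-0.33) also had values below control. Fibroblast markers summed to 22.9 and 25.2 with PGE2 and to 200.7 and 90.5 in control, with 4 of 6 well above background on some array and Dpt and Col15a1 on none. The bright Dcn carried that sum (log2 change -2.91) and Lum also had a value below control (-2.17), while Pi16 (2.78) and Pdgfra (0.60) had values above it. Leukocyte markers summed to 9.80 and 6.73 with PGE2 and to 5.77 and 5.72 in control, with 4 of 6 well above background, and Adgre1 and Lyz2 on none. Cd68, Csf1r and Cd14 had values above control (log2 changes of 2.09, 0.98 and 0.62), while Ptprc, the pan-leukocyte marker, had a value below it (-0.36). Endothelial markers (0.178 and 0.284 with PGE2, 0.463 and 0.226 in control, 4 of 6 well above background on some array and Tek and Tie1 on none) and adipocyte markers (0.246 and 0.190 with PGE2, 0.431 and 0.287 in control, 2 of 5 well above background on some array and Adipoq, Plin1 and Ucp1 on none) were the lowest sums. The sums of the smooth muscle, fibroblast, leukocyte and adipocyte markers did not overlap between the groups, and their part in the clock values was not tested. The adipocyte sums separated although only 2 of 5 of those markers were well above background on any array. Fewer cells of a type and less RNA per cell cannot be told apart in such samples.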

How the data were processed

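Per the labels, total RNA from each culture was labelled with Cy3 and hybridised to 1 array. The values deposited per spot are intensities, made, per the file headers, with Agilent Feature Extraction 11.5.1.1 (12.0.3.1 per the submitters' processing notes) with protocol GE1_1105_Oct12 on design 074809. The processed intensity, in that software the spot intensity after background correction, was used. The deposited flags are another kind of value, 0 or 1 per spot. The authors' deposited table of the series gives a scaled signal. Dividing it by the processed intensity left 1 factor for each array (1.07 for PGE2 1, 0.990 for PGE2 2, 0.964 for control 1 and 0.945 for control 2). It served as an alternative and gave gene symbols, and its 4 other per-sample columns were not used. Scale, centring and direction are thus those of the scanner values, and the table's medians are 39.9 and 40.5 for PGE2 and 32.7 and 42.9 for control.

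Of 62976 spots, 59305 were not controls. Spots of a probe were averaged, 329 probes with outlier flags were left out, and 25940 probes were kept. Symbols were updated by gene ID from RefSeq (GRCm38.p6) for 2199 of 47700 spots, 44970 of which matched. Agilent's annotation is on build mm9, so no RefSeq gene coordinate was joined to a probe. PGE2 was compared with control by limma 3.58.1 in R 4.3.3 (lmFit, eBayes, 2 residual and 2.14 prior degrees of freedom) on all 17553 features, with Benjamini-Hochberg adjustment and a threshold of 0.05. Intervals are 95% intervals of that fit. The study's design text calls them biological replicates, and 2 arrays per group limit the precision. All 4 arrays carry 1 scan identifier, and no pair held identical values.

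The genes and lists were chosen with earlier results of these data known. The rule named every core clock gene and, in each other list, the called members or, with none called, the 3 with the smallest p. Alternatives were quantile normalization, median centring, normexp background correction, the deposited scaled signal, other filters, the mean of probes, a trended robust prior, a replicate block and each array left out. In 20 simulations of this comparison with 200 of 17553 features changed, changes of 2-fold were called in 1.64% of cases, those of 4-fold in 75.8% and those of 16-fold in 96.1%. False calls averaged 9.15. In that setting changes of the size seen in most clock genes would rarely be called. The simulated noise was independent between arrays and features. In the data 3100 features had an unadjusted p under 0.05 (limma), so these rates need not hold for the data.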

Additional observations from a re-analysis of the deposited data

How the results depend on the processing

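The count of core clock genes called was 0 in each direction in 12 of 13 alternatives, and 1 higher (Per1) and 0 lower with a trended and robust prior. Per1, Per2, Per3, Nr1d1 and Nr1d2 stayed above 0 and Clock below 0 in all 13 alternatives. Cry1 stayed below 0 in the 12 in which it could be tested, since it drops out when all 4 arrays must be above background. Much of this was fixed in advance. On the probes used the groups of these genes do not overlap, so leaving out 1 array cannot turn a sign. The replicate block, the trended prior and the other filters left each fitted change as it was wherever the gene was tested. Cry1 was also tested only through the group where it is high. Values near 0 changed sign. Arntl ranged from -0.76 to 0.073 (without control replicate 1) as each array was left out. Cry2 ranged from -0.12 (without control replicate 2) to 0.18, with -0.095 without PGE2 replicate 1, and was -0.031 with probes averaged. The median over the clock genes was 0.33 with probes averaged, 0.90 on the deposited scaled signal, where the median of all tested features shifts to 0.23 from -0.025, and 0.36 to 0.73 as each array was left out.

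Over all features 70 were called higher and 48 lower. Limma called 0 and 0 on the deposited scaled signal (4172 at an unadjusted p under 0.05) and without the filter on dim probes (2672). It called 36 and 15 with the filter for all 4 arrays, and 0 to 45 higher and 0 to 47 lower as each array was left out, with 0 of either without control replicate 1 (2701 at an unadjusted p under 0.05) or control replicate 2 (2928). The call of Sgk1 was lost on the deposited scaled signal, without the dim filter, without either control replicate and without PGE2 replicate 2 (adjusted p from 0.0509 to 0.214, limma). The alternatives for the other pathway genes named were chosen after seeing the data. The median spot intensity was used in place of the mean in normexp.

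Nothing in the labels ties cultures of equal number to each other. Same-numbered arrays deviated together over all features (r = 0.42), and features are not independent. Over the core clock genes r was -0.12, but the dim Cry1 weighs heavily in it. The gap of Cry1 was 0.65 within PGE2 and 1.63 within control, in opposite directions. This r therefore does not show that the clock genes lack the shared deviation. A replicate block left 0 core clock genes called while calling 74 features higher and 76 lower. The causes of these changes were not tested.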
